A study of Mus musculus with 6 samples.

Results

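The mucin-type glycosyltransferases were taken as every gene of the deposited colon table whose symbol began with Galnt, B3gnt, B3galt, B4galt, B4galnt, C1galt, Gcnt, St3gal, St6gal, St6galnac or Fut followed by a digit, with C1galt1c1 included. This gave 70 genes of 18477, of which 63 passed the filter on low counts among 14579 genes tested. The study asked how the gut bacterium Bacteroides vulgatus (BV) affects colitis caused by dextran sulfate sodium (DSS), a polymer that damages the colon lining. RNA was sequenced from the colon of male C57BL/6 mice aged 6 to 8 weeks. All mice drank 2% DSS from days 8 to 14. The 3 DSS mice were gavaged with PBS for 14 days and the 3 DSS+BV mice with B. vulgatus for the same time. No mouse without DSS was analysed here, so the comparison concerns BV on top of DSS. Each library was taken as 1 mouse, although the labels do not name separate animals, so the p-values measure the spread between these samples.

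Mucins carry dense sugar chains on serine and threonine, and these O-glycans hold the water of the mucus layer and feed some gut bacteria. The Galnt enzymes attach the first sugar, N-acetylgalactosamine (GalNAc). C1galt1, B3gnt6 and the Gcnt enzymes then build the core structures, the B3gnt, B3galt and B4galt families lengthen the chain, and B4galnt, sialyl- and fucosyltransferases cap it. By textbook acceptor, 9 of the tested members act on glycolipids, 4 on N-glycans and 2 on the linker of proteoglycans. The other 48 were grouped as mucin-type or several kinds of chain. That group takes in any member given no other acceptor, among them the chaperone C1galt1c1.

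Expected counts per library, as estimated by the authors with RSEM, summed to between 15293276 and 17254343. Gene positions are those of GENCODE M21 on GRCm38. Values are CPM, counts scaled to a common library size with the TMM factors of edgeR, and fold changes are DSS+BV relative to DSS on the log2 scale. The libraries did not sort cleanly by group. DSS 1 correlated more closely with DSS+BV 1 (Pearson's r = 0.971 across genes) than with DSS 2 (0.943) or DSS 3 (0.953). DSS 2 was closest to DSS+BV 2 (0.968). Of 6 Hox genes of the distal colon, Hoxb13 and Hoxd13 were lowest in DSS 2 and DSS+BV 3, with Hoxb13 at 36.4 and 0 CPM there and 112 to 248 in the other libraries. Hoxd12 was 0 in DSS 2 and DSS+BV 3 and 0.70 to 2.84 CPM in the other libraries. Hoxa13 was highest in DSS 2 (21.01 CPM) and lowest in DSS+BV 3 (0.19). Hoxd10 and Hoxd11 were low in DSS 2 but not in DSS+BV 3 (8.41 and 5.31). The part of position along the colon in the results below was not tested.

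No member passed the criteria, an adjusted p under 0.05 with an absolute log2 fold change over 1, in edgeR's quasi-likelihood test. The study set these thresholds for DESeq2, which was an alternative here. Among all tested genes, 0.0892% were called lower and 0% higher in DSS+BV. The smallest adjusted p of a member was 0.222. At an unadjusted p under 0.05, 9 members were lower (14.3%, against 9.12% of all genes) and 3 were higher (4.76%, against 3.4%). DESeq2 gave 4 members an adjusted p under 0.05 and called 1 of them, Galnt18 (log2 fold change -1.53, adjusted p = 0.00427). It gave 2.12% of all genes an adjusted p under 0.05 with lower values and 0.458% with higher values, and called 1.73% lower and 0.279% higher. Log2 fold changes lay below 0 for 35 members and above 0 for 28, with a median of -0.02 against -0.01 for all genes.

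**Figure D1:**
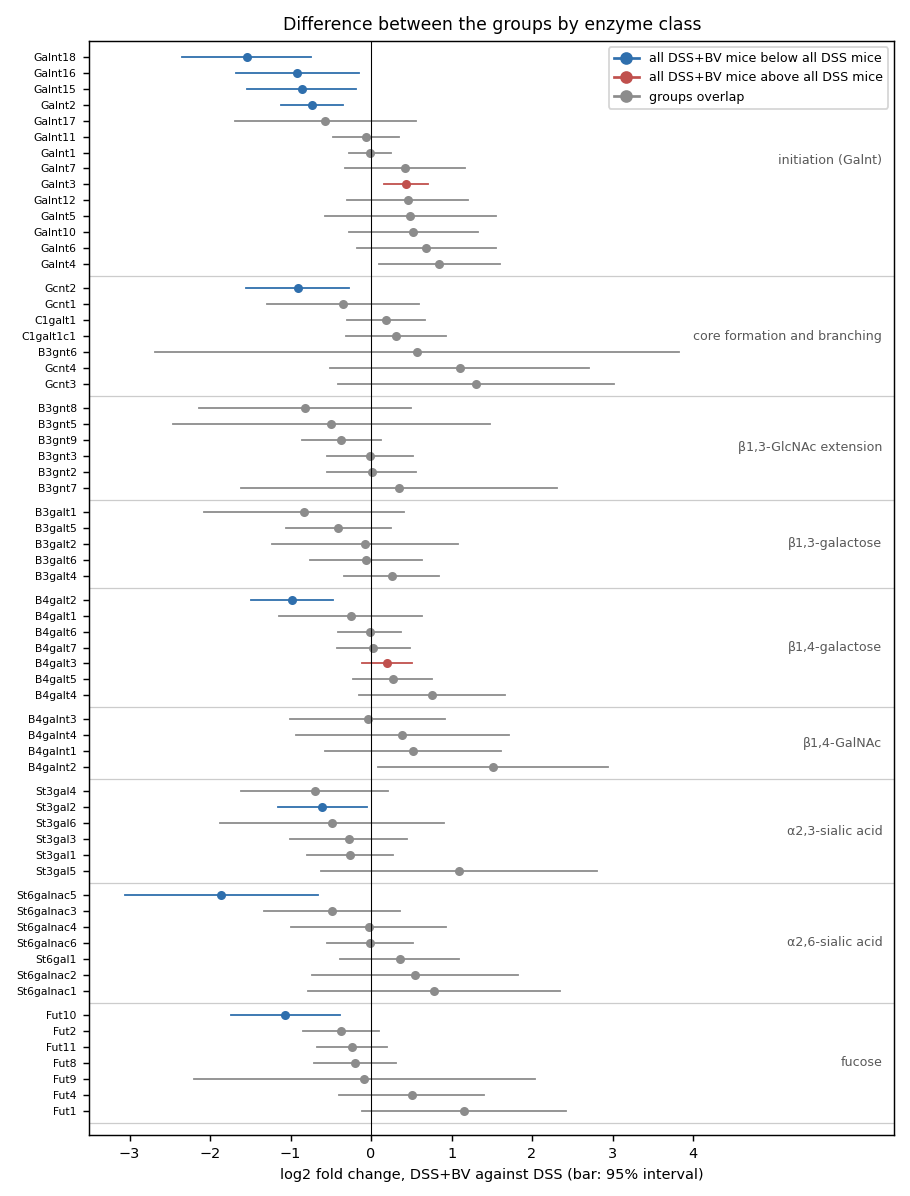
Log2 fold change (DSS+BV relative to DSS, x axis) of the 63 tested members by enzyme class, with 95% confidence intervals from edgeR. Values run from -1.86 for St6galnac5 to 1.52 for B4galnt2, and every class has members on both sides of 0.

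The groups did not overlap for 9 members with lower values in DSS+BV (14.3%, against 11.3% of all genes) and for 2 with higher values (3.17%, against 6.37%), where 17.6% of all genes had such groups in either direction. The 9 were Galnt18, Galnt2, Galnt15, Galnt16, Gcnt2, B4galt2, St3gal2, St6galnac5 and Fut10, and they were also the 9 at an unadjusted p under 0.05. The 2 were Galnt3 and B4galt3.

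**Figure D2:**
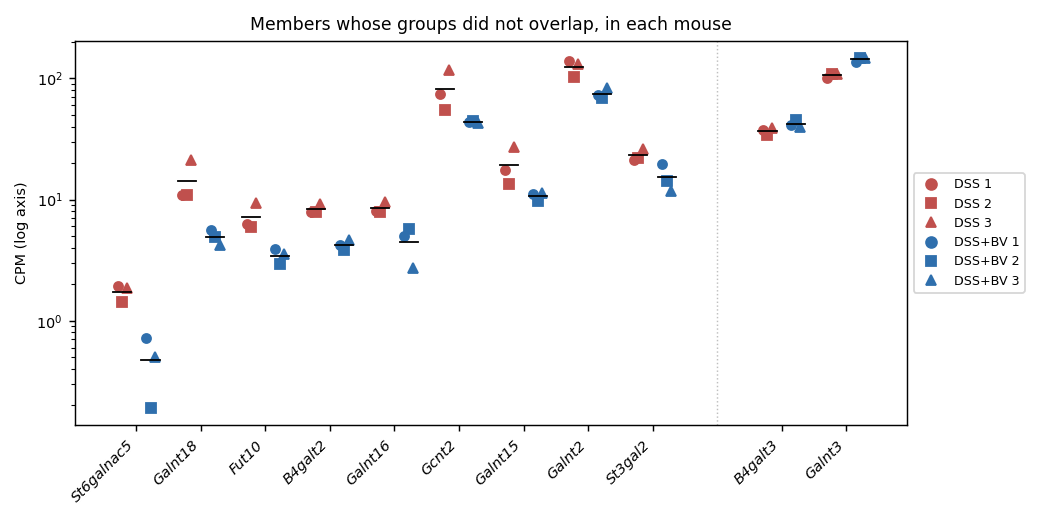
CPM on a log axis in each of the 6 mice for the members whose groups did not overlap. Points are mice and bars are group means, with DSS in red and DSS+BV in blue. The 9 members on the left have every DSS+BV mouse below every DSS mouse, and Galnt3 and B4galt3 have every DSS+BV mouse above.

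The promoters of 5 members are printed to show the DNA upstream of genes that were apart between the groups (B4galt2, B4galt3) or varied widely between mice (B4galnt2, B3gnt5, St3gal5, with an SD of log2 CPM over 0.9 within groups). Of the 20 members of either kind, 8 had a single promoter in the RefSeq table, and these 5 had at most 30 of its 250 bases inside the gene as GENCODE M21 gives it (11 bases in B4galt2, 0 in B4galt3, 20 in B4galnt2, 26 in B3gnt5 and 16 in St3gal5). Each run is the 250 bases before a RefSeq start on GRCm38.p6, read 5′ to 3′ on the gene's strand. Capitals mark GC boxes, the letters GGGCGG on either strand, and 2 boxes in B4galt2 overlap.
B4galt2, chr4:117883477-117883726, minus strand: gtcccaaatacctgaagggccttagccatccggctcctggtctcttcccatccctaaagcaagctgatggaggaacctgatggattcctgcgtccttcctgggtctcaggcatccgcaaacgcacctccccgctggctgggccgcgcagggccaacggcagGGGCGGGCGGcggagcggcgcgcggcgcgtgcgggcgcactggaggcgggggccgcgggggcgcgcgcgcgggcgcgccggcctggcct
B4galt3, chr1:171270078-171270327, plus strand: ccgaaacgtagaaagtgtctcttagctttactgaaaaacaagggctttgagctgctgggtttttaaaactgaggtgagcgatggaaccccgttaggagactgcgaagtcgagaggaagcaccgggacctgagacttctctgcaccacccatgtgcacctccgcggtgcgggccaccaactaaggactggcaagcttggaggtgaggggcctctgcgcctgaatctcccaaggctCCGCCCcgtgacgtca
B4galnt2, chr11:95914872-95915121, minus strand: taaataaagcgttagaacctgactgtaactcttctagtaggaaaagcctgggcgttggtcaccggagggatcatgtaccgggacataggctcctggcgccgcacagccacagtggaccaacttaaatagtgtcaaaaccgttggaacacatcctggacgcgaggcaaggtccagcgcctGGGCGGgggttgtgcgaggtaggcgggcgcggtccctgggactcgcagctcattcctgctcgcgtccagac
B3gnt5, chr16:19759984-19760233, plus strand: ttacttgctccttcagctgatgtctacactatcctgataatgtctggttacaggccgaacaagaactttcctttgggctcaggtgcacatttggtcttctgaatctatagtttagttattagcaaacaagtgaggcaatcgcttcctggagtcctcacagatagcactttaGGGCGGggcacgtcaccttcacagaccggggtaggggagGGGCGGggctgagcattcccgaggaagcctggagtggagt
St3gal5, chr6:72097358-72097607, plus strand: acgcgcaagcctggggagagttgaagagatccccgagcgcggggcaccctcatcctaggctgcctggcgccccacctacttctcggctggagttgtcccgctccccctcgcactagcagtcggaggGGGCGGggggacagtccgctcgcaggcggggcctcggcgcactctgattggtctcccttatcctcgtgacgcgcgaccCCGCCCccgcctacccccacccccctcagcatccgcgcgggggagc
RefSeq gave 71 promoters for 51 of the members. GC boxes were present in 35 of the 71, against 32.7% of all 32851 promoters. TATAAA was in 1 of the 71, against 12.4% of all, and CAATAAA, letters bound by CDX proteins, in 2 against 4.2%. Median GC content was 59.6% in member promoters and 52.4% in all.

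Galnt enzymes that start the chain lay on both sides of 0. Galnt18, an initiating enzyme with little activity of its own (chr7:111471661-111779977, minus strand), measured 10.8, 10.8 and 21.4 CPM in the DSS mice and 5.61, 4.91 and 4.24 in the DSS+BV mice. Every DSS+BV mouse lay below every DSS mouse. The log2 fold change was -1.54 (SE 0.34, 95% confidence interval -2.35 to -0.74), with an adjusted p of 0.222 in edgeR and 0.00427 in DESeq2. Galnt2, one of the broadly expressed initiating enzymes (chr8:124231391-124345724, plus strand), measured 139, 103 and 132 CPM in DSS and 72.4, 68.7 and 83.3 in DSS+BV. The groups were apart in all mice. Its log2 fold change was -0.74 (SE 0.16, adjusted p = 0.222 in edgeR and 0.0186 in DESeq2), and 90% of its exon bases overlapped the same-strand gene Gm20388 in the annotation, a gene that is no row of the table. Galnt15 measured 17.6, 13.6 and 27.3 CPM in DSS and 11.1, 9.68 and 11.4 in DSS+BV (log2 fold change -0.86, SE 0.28, adjusted p = 0.344). Galnt16 measured 8.02, 7.96 and 9.49 CPM in DSS and 5.01, 5.73 and 2.72 in DSS+BV (log2 fold change -0.92, SE 0.32, adjusted p = 0.358). Both of these initiating enzymes had every DSS+BV mouse below every DSS mouse.

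Galnt3, which initiates O-glycans and is known for glycosylating the hormone FGF23 (chr2:66082766-66124994, minus strand), was 101, 110 and 108 CPM in DSS and 137, 147 and 146 in DSS+BV. All DSS+BV mice were above all DSS mice and both groups were tight, with a log2 fold change of 0.43 (SE 0.11, adjusted p = 0.284 in edgeR and 0.0196 in DESeq2). Galnt4, which adds GalNAc to chains that already carry some, was 173, 264 and 142 CPM in DSS and 238, 351 and 453 in DSS+BV. Here DSS 2 exceeded DSS+BV 1, so the groups overlapped. The log2 fold change of Galnt4 was 0.85 (SE 0.32, adjusted p = 0.371). Galnt7, which like Galnt4 prefers chains with GalNAc already in place, measured 142, 287 and 146 CPM in DSS and 225, 231 and 317 in DSS+BV, and Galnt12 measured 68.0, 127 and 87.1 in DSS and 88.3, 127 and 172 in DSS+BV. In Galnt5, Galnt7 and Galnt12 alike DSS 2 was the highest DSS mouse and DSS+BV 3 the highest of its group. Galnt12, Galnt7 and Galnt5 had log2 fold changes of 0.46, 0.42 and 0.49 with adjusted p-values of 0.582, 0.609 and 0.676 in edgeR. Galnt1 differed little among the 6 mice, from 135 to 144 CPM, with an interval of its log2 fold change of -0.28 to 0.25. Over the 14 initiating members the median log2 fold change was 0.20, and 7 lay below 0 and 7 above. This median lay in the gap between Galnt1 and Galnt7 and moved to -0.03 with no filter on low counts.

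Core enzymes had log2 fold changes above 0 for 5 of 7 members, with wide spread between mice. C1galt1, the enzyme of core 1, measured 71.0, 116 and 77.5 CPM in DSS and 101, 94.9 and 104 in DSS+BV. C1galt1c1, the chaperone that C1galt1 needs, measured 43.5, 86.7 and 56.8 in DSS and 68.1, 77.3 and 87.0 in DSS+BV. DSS 2 was the highest DSS mouse in both genes, above every DSS+BV mouse in C1galt1 and within their range in C1galt1c1. The log2 fold changes were 0.18 (95% confidence interval -0.30 to 0.67) and 0.31 (-0.31 to 0.93).

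Gcnt3, the mucin-type branching enzyme of cores 2 and 4, was 48.7, 197 and 122 CPM in DSS and 86.2, 306 and 516 in DSS+BV. DSS+BV 1 lay within the DSS range. The log2 fold change was 1.30 (SE 0.72, adjusted p = 0.501). Gcnt4, another branching enzyme, measured 6.65, 18.8 and 5.24 CPM in DSS and 7.59, 23.6 and 34.5 in DSS+BV, again with DSS+BV 1 inside the DSS range. Gcnt1, the widely expressed core 2 enzyme, had a log2 fold change of -0.35 (adjusted p = 0.734). Gcnt2, which makes branches on poly-LacNAc chains and is grouped here by its family, was 74.0, 55.3 and 117 CPM in DSS and 43.8, 44.2 and 43.1 in DSS+BV. The DSS+BV mice were almost equal and all lower (log2 fold change -0.91, SE 0.27, adjusted p = 0.322).

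B3gnt6, which makes core 3, a core typical of colon mucin (chr7:98192417-98199481, minus strand), measured 1.32, 52.2 and 2.85 CPM in the DSS mice and 5.87, 23.1 and 54.6 in the DSS+BV mice. The highest library held 41.5 times the lowest, and the high libraries were in both groups. Its log2 fold change of 0.57 had a 95% confidence interval of -2.68 to 3.82, so a difference between groups was not detectable here.

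Among the enzymes that lengthen the chain, B3gnt3, which extends core 1, differed little between groups, at 380 ± 92.3 CPM in DSS and 377 ± 53.5 in DSS+BV (SD, n = 3), with an interval of the log2 fold change of -0.54 to 0.51. B3gnt7, a poly-LacNAc and keratan sulfate enzyme, measured 399, 153 and 303 CPM in DSS and 710, 325 and 52.6 in DSS+BV. Its highest and lowest libraries were both in DSS+BV (log2 fold change 0.35, SE 0.82, adjusted p = 0.886). B3gnt5, which starts the lacto-series glycolipids, likewise ran from 162 in DSS+BV 1 to 11.1 in DSS+BV 3. B3gnt9 had the smallest p of its class, with a log2 fold change of -0.37 (adjusted p = 0.503). B3galt5, which makes type 1 chains, measured 1150.5 ± 132 CPM in DSS (SD, n = 3) and 867 ± 298 in DSS+BV (log2 fold change -0.41, SE 0.27, adjusted p = 0.571). DSS+BV 2 and DSS+BV 3 were below all DSS mice at 827 and 591 CPM, and DSS+BV 1 was among them at 1183. B3galt1 had the smallest p of the β1,3-galactosyltransferases, with a log2 fold change of -0.84 (adjusted p = 0.544).

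B4galt2, a β1,4-galactosyltransferase (chr4:117869260-117883487, minus strand), measured 7.96, 7.90 and 9.14 CPM in DSS and 4.22, 3.82 and 4.62 in DSS+BV. Groups were compact and apart (log2 fold change -0.98, SE 0.21, adjusted p = 0.222 in edgeR and 0.00861 in DESeq2), and 28.2% of its exon bases overlapped the same-strand gene Ccdc24. B4galt1, the better known galactosyltransferase, was 283, 115 and 326 in DSS and 210, 229 and 168 in DSS+BV, with DSS 2 the lowest of all. B4galt3 measured 37.5, 34.0 and 38.9 CPM in DSS and 41.0, 45.5 and 39.6 in DSS+BV, a narrow gap with no overlap (log2 fold change 0.19, SE 0.13, adjusted p = 0.576). B4galnt2, which adds the GalNAc of the Sda antigen (chr11:95865943-95914891, minus strand), measured 164, 449 and 302 CPM in DSS and 295, 965 and 1359 in DSS+BV. DSS+BV 2 and DSS+BV 3 were above every DSS mouse and DSS+BV 1 was not. The log2 fold change was 1.52 (SE 0.60, adjusted p = 0.388). Per kilobase of exon, B4galnt2 was the highest member over both groups (177 CPM per kb in DSS and 507 in DSS+BV), ahead of St6galnac6 (170 and 168), B3galt5 (187 and 141) and B3gnt3 (125 and 123).

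**Figure D3:**
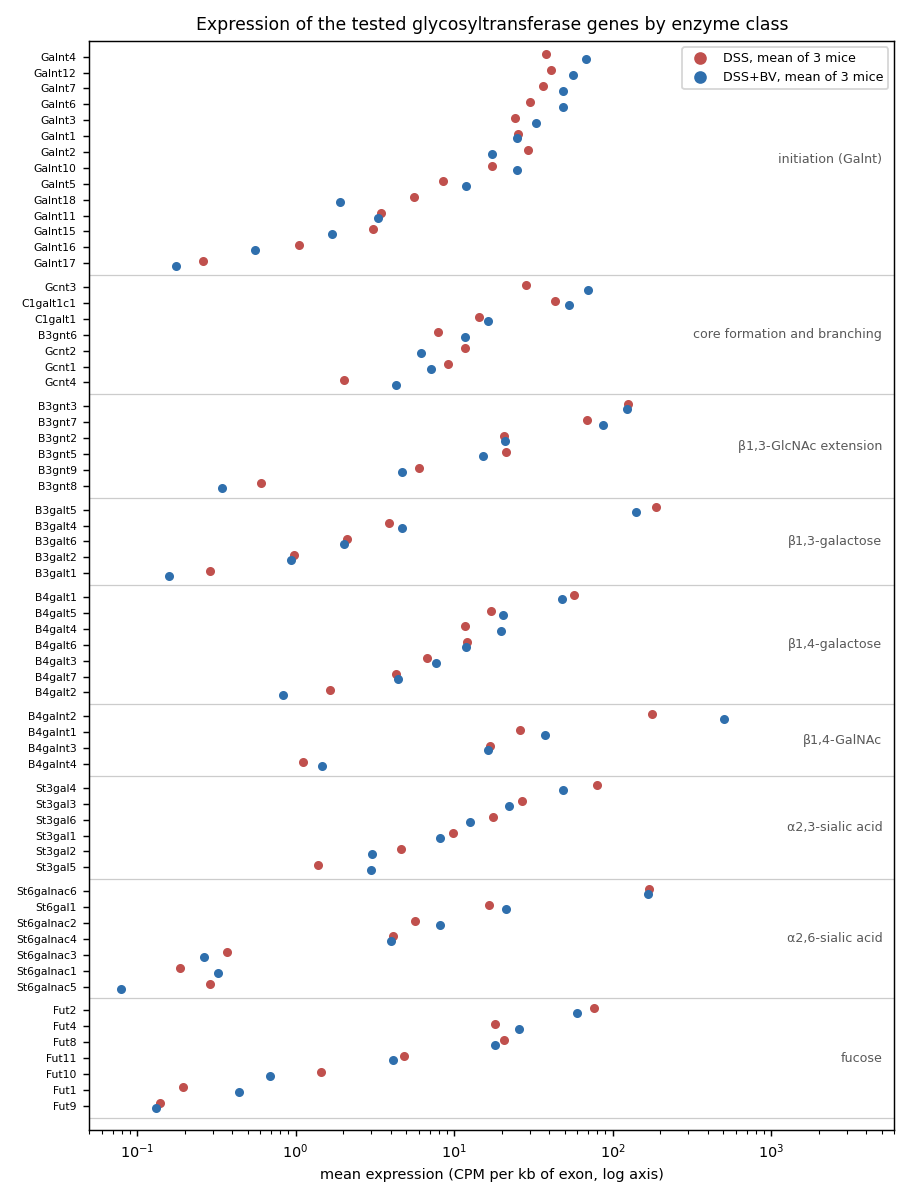
Expression level of members, as CPM per kb of exon, on a log axis, by enzyme class in DSS and DSS+BV. B4galnt2, St6galnac6, B3galt5 and B3gnt3 are the highest.

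Sialyltransferases cap chains with sialic acid. St3gal4 and St3gal6, which sialylate chains that can become selectin ligands, were highest in different mice. St3gal4 measured 199, 278 and 219 CPM in DSS and 220, 135 and 73.3 in DSS+BV. St3gal6 measured 104, 107 and 115 in DSS and 146, 64.7 and 22.6 in DSS+BV. In both genes DSS+BV 3 was lowest, and the adjusted p-values were 0.5 and 0.757. St3gal2, which acts on core 1 and on gangliosides, had 21.4, 22.01 and 26.4 CPM in DSS and 19.7, 14.3 and 11.8 in DSS+BV (log2 fold change -0.61, adjusted p = 0.379). St3gal1, which caps core 1, had a log2 fold change of -0.27 (adjusted p = 0.652). St3gal5, which makes the ganglioside GM3, was 17.1 CPM in DSS+BV 2 and 2.72 to 4.60 in the other 5 libraries. St6galnac5, a ganglioside enzyme, had only 32, 23 and 32 counts in DSS and 11, 3 and 8 in DSS+BV (log2 fold change -1.86, SE 0.50, adjusted p = 0.299). St6galnac6, the highest sialyltransferase per kilobase of exon, measured 820 ± 99.2 CPM in DSS and 810 ± 204 in DSS+BV (SD, n = 3). St6gal1, which caps N-glycans, measured 53.5, 94.2 and 96.2 CPM in DSS and 143, 79.2 and 90.0 in DSS+BV (log2 fold change 0.36, adjusted p = 0.662). St6galnac1, which makes sialyl-Tn, was near the filter at 2 to 14 counts per library.

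Fut2, which adds α1,2-fucose to mucin chains and gives the secretor blood group antigens, measured 462, 310 and 480 CPM in DSS and 301, 325 and 341 in DSS+BV. DSS 2 lay within the DSS+BV range. The log2 fold change was -0.37 (95% confidence interval -0.85 to 0.10, adjusted p = 0.491). Fut10 measured 6.29, 5.97 and 9.43 CPM in DSS and 3.89, 2.93 and 3.54 in DSS+BV, with no overlap (log2 fold change -1.06, SE 0.28, adjusted p = 0.29). Fut4, a Lewis-type fucosyltransferase, was 115, 50.1 and 55.4 CPM in DSS and 142, 92.6 and 77.8 in DSS+BV (log2 fold change 0.50, adjusted p = 0.614). Fut8, which adds core fucose to N-glycans, was 159, 178 and 154 in DSS and 189, 124 and 114 in DSS+BV (log2 fold change -0.20, adjusted p = 0.725). DSS 1 was within the DSS+BV range for both. Fut9, another Lewis-type enzyme, had 4 to 66 counts per library, both extremes in DSS+BV. Fut7, the leukocyte enzyme of selectin ligands, had at most 4 counts in a library and was not tested.

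By class, median log2 fold changes lay between -0.38 for the α2,3-sialyltransferases (5 of 6 members below 0) and 0.46 for the β1,4-GalNAc transferases (3 of 4 above 0). By textbook acceptor, B4galnt1 of the β1,4-GalNAc class acts on glycolipids, and B4galnt3 and B4galnt4 act on N-glycans. The core enzymes had a median of 0.31. With 1 library left out, the core median lay between 0.0529 (without DSS 1) and 0.64 (without DSS 2), and the β1,4-GalNAc median between 0.24 (without DSS+BV 3) and 0.83 (without DSS+BV 1). The mean level of the core class relative to each gene's mean ran from -0.84 in DSS 1 to 0.71 in DSS+BV 3, and its 3 DSS values (-0.84, 0.44 and -0.29) overlapped its DSS+BV values (-0.34, 0.32 and 0.71). Groups also overlapped in the β1,4-GalNAc class (-0.375, -0.0877 and -0.278 in DSS, -0.413, 0.6 and 0.554 in DSS+BV). The same held for the α2,3-sialic acid class (-0.0491, 0.311 and 0.28 in DSS, 0.0644, 0.102 and -0.709 in DSS+BV).

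**Figure D4:**
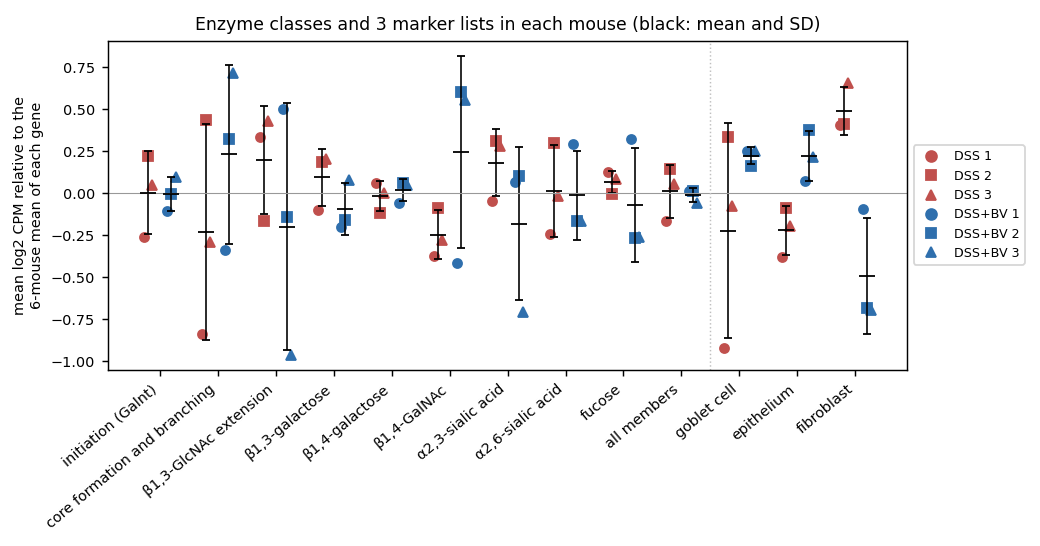
Mean log2 CPM of each enzyme class relative to the mean of each gene over the 6 mice, by library, with goblet cell, epithelial and fibroblast lists at the right and black bars for the group mean and SD. Core scores run from -0.84 to 0.71 and the fibroblast list is above 0 in the 3 DSS mice and below 0 in the 3 DSS+BV mice.

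Members varied more between mice of a group than other genes did. The median SD of log2 CPM within groups was 0.41 for members and 0.28 for all tested genes. An SD over 0.9 was found for 9 members (14.3%, against 5.23% of all genes): B3gnt6, B3gnt7, B3gnt5, Gcnt3, Gcnt4, Fut9, B4galnt2, St3gal5 and St3gal6. B3gnt6, Gcnt3 and B4galnt2 were each lowest in DSS 1, and in DSS+BV they were lowest in DSS+BV 1. B3gnt5, B3gnt7 and St3gal6 were instead highest in DSS+BV 1 and lowest in DSS+BV 3.

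**Figure D5:**
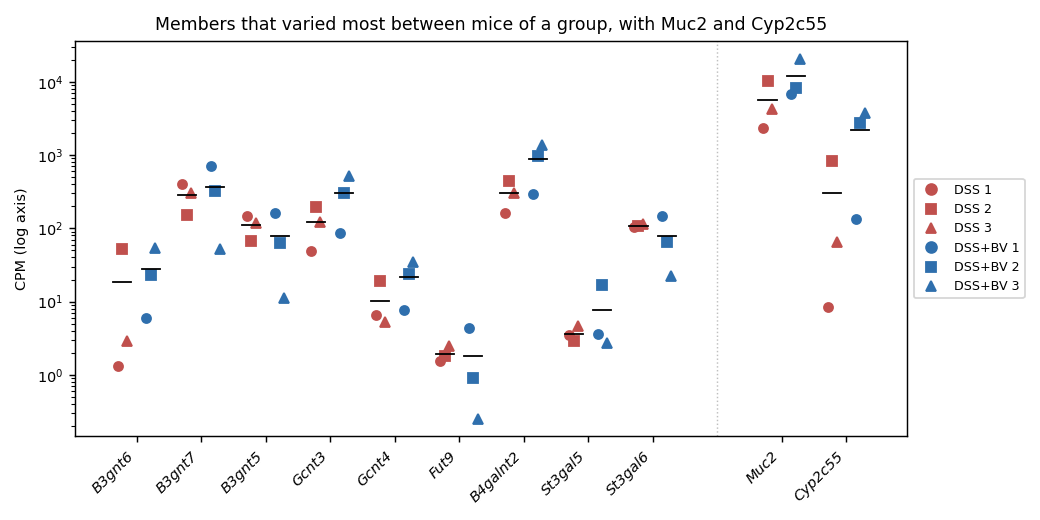
CPM on a log axis in each mouse for the 9 members whose within-group SD of log2 CPM was over 0.9, with Muc2 and Cyp2c55 at the right. Colours give the group, shapes the replicate number and bars the group mean. B3gnt6 spans 1.32 to 54.6 CPM, and Cyp2c55, chosen after its values were seen, spans 8.32 to 3776.

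The summed levels of the fibroblast, endothelial and epithelial lists did not overlap between the groups, and those of the other cell type lists did. Fibroblast genes summed to 4125 to 4348 CPM in DSS and 1505 to 2217 in DSS+BV, and epithelial genes to 13763 to 16075 and 17738 to 23078. Of the 10 fibroblast genes tested, 8 were lower at an unadjusted p under 0.05 (against 9.12% of all genes). So were 5 of the 10 endothelial genes, with sums of 447.7 to 588.8 CPM in DSS and 294.5 to 392.1 in DSS+BV. Of the 14 epithelial genes tested, 5 were higher at that threshold (against 3.4% of all genes), and all 14 had log2 fold changes above 0. The groups did not overlap for 7 of these 14, all higher in DSS+BV (against 6.37% of all genes). Of the 13 neutrophil genes tested, 6 were called lower, with a median log2 fold change of -3.24 and with Elane at 0. The groups did not overlap for 11 of the 13, all lower in DSS+BV (against 11.3% of all genes). Neutrophil sums were 226.4 to 1085 CPM in DSS and 33.7 to 332.1 in DSS+BV. Much of these sums came from Ly6g, at 485, 76.1 and 854 CPM in DSS and 303, 215 and 19.1 in DSS+BV. Median log2 fold changes were -0.89 for macrophage, -0.77 for B and plasma cell, -0.22 for T cell and -0.20 for smooth muscle genes. They were 0.33 for absorptive colonocyte and 0.53 for goblet cell genes, and edgeR called no gene of these lists. DESeq2 gave an adjusted p under 0.05 to Cd163 (0.000264) and Mrc1 (0.0317) of the macrophage list and Car1 (0.00272) of the absorptive list. Their edgeR log2 fold changes were -1.98, -1.33 and 2.84. No gene of the fibroblast, endothelial and epithelial lists was called by edgeR either. In the fibroblast list DESeq2 gave an adjusted p under 0.05 to Col3a1 (8.02e-10), Col1a1 (0.000162), Col1a2 (0.0021), Pdpn (0.00478) and Dcn (0.0245), all lower. It did so for Egfl7 (0.00803) and Vwf (0.022) of the endothelial list, both lower, and Vil1 (0.0333) of the epithelial list, which was higher. The part of these cell types in the values of Galnt2, Galnt18 and the other lower members was not tested. In bulk tissue fewer cells of a type and less RNA per cell cannot be told apart. Muc2, the main colon mucin, measured 2339, 10171 and 4239 CPM in DSS and 6878, 8265 and 20700 in DSS+BV, with an adjusted p of 0.534.

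Other genes of the pathway gave no calls either. Of 24 tested genes for sugar donors and their transport, 22 had log2 fold changes above 0. Among those higher at an unadjusted p under 0.05 were Slc35d1 (1.40), a nucleotide-sugar transporter, and Nanp (0.57), of sialic acid synthesis. None of 13 sulfation genes, 15 other glycan enzymes or 7 mucins passed the criteria, and medians were 0.21, 0.04 and 0.58.

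Leaving out 1 library moved the counts. Without DSS 2, 14 of 64 members were higher at an unadjusted p under 0.05 (21.9%, against 8.6% of all genes), among them C1galt1, C1galt1c1, B3gnt6, Galnt5 and Galnt7, and 10 were lower (15.6%, against 9.02%). The groups then did not overlap for 17 members higher (26.6%, against 18.4%) and 11 lower (17.2%, against 17.5%). Without DSS+BV 1, 16 of 64 were lower (25%, against 11%), among them St3gal4, St3gal6 and B3galt5, and 6 were higher (9.38%, against 4.82%). The groups then did not overlap for 17 members lower (26.6%, against 20.5%) and 10 higher (15.6%, against 15.8%). With each library left out in turn, log2 fold changes lay between -1.71 and -1.14 for Galnt18, -0.84 and -0.65 for Galnt2, -1.05 and -0.91 for B4galt2, 0.40 and 0.48 for Galnt3, and 1.05 and 1.94 for B4galnt2. No member met the criteria with any 1 library left out. Untested members had few counts: Gcnt7 was listed at 0 in all 6 libraries, which allows up to 3 counts in each, and Fut7, B3gnt4, Galnt9, Galnt13, Galnt14 and St6gal2 had at most 32 in a library.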

How the data were processed

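Colon RNA from 3 DSS and 3 DSS+BV mice was sequenced after library preparation with a SMARTER mRNA kit. The authors estimated expression with RSEM and deposited expected counts per gene, not scaled between libraries. The submitters' processing notes name HISAT2 2.1.0, Bowtie2 2.2.5, RSEM 1.2.8 and GRCm38.p6. Use of strand is not given in the sources used here, so a gene and an antisense partner cannot be told apart. Among other tested members, opposite-strand genes overlapped 26.0% of the exon bases of St3gal6 (Dcbld2), 20.7% of B4galnt1 (Slc26a10) and 18.1% of B3gnt8 (Bckdha). The shares were 16.5% for B3gnt9 (D230025D16Rik), 15.3% for B4galnt2 (Gm11534), 14.5% for B4galt3 (Ppox) and 14.1% for St3gal4 (4930581F22Rik), and smaller for further members. Of the untested members, B3gnt4 overlapped Diablo by 93.2%. The same-strand gene Gm28048 overlapped 58.6% of the exon bases of B3gnt2. Expected counts were rounded to whole numbers (values were not whole for 2 members). Genes were kept with filterByExpr (minimum count 10, minimum total 15), and edgeR 4.0.16 (R 4.3.3) was used for TMM scaling and for its quasi-likelihood test, in which p-values were adjusted by the Benjamini-Hochberg method across 14579 genes. Standard errors were derived from the F statistic. A gene was called at an adjusted p under 0.05 where its log2 fold change was also over 1 in size. Totals lay between 15293276 and 17254343. Exon lengths and overlaps came from GENCODE M21, which matched 70 of 70 members, and promoters from RefSeq on GRCm38.p6. Spread and class levels used log2 of CPM with a pseudocount of 0.5. Named members were, in each class, the one with the smallest p and the one with the highest mean CPM, all at an unadjusted p under 0.05 with groups that did not overlap, and textbook enzymes of mucin O-glycans. Galnt4 and B4galnt2 are among the textbook enzymes, as are B3gnt6, B3gnt7, Gcnt3 and St3gal6. The 9 variable members were set apart by their spread in these data. B3gnt5, Gcnt4, Fut9 and St3gal5 of those 9, and also Galnt1 and B4galt3, were named after their values were seen. Members and lists were chosen with earlier results of these data known. Alternatives were DESeq2 1.42.0, RLE factors, no filter on low counts, a call on adjusted p alone, the replicate number as a block and each library left out in turn. Figures used matplotlib 3.10.9 in Python 3.11.15.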

Additional observations from a re-analysis of the deposited data

How the results depend on the processing

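RLE factors and a call on adjusted p alone changed no direction or call. With no filter on low counts, the initiation median was -0.032, and B3gnt3 and St6galnac6 turned to 0.018 and 0.0105. DESeq2 called 280 genes lower and 45 higher, against 13 and 0 with edgeR, and 1 member lower, Galnt18 (-1.53). It gave an initiation median of -0.0379, and B3gnt3 and St6galnac6 at 0.0064 and 0.0036. Same-numbered libraries correlated at 0.267, 0.255 and -0.296 in their deviations from the group means. Deviations within 3 libraries depend on each other, so these values cannot settle whether the numbers pair the samples. The labels give no pairing, and the main test used none. With the replicate number as a block, 0 genes were called lower, 6 members were higher at an unadjusted p under 0.05, and B3gnt3 and B3gnt7 turned to 0.0038 and -0.0775. In the deviations from the group means, DSS 2 correlated best with DSS+BV 3 (0.484) and DSS 3 with DSS+BV 1 (0.370). Because of the same dependence, these values cannot settle a pairing either. With 1 library left out, 0 to 3 genes were called lower and 0 to 4 higher, the 4 without DSS+BV 1, and 0 members in either direction. Members at an unadjusted p under 0.05 numbered 7 to 16 lower and 1 to 14 higher, and members whose groups did not overlap 10 to 17 lower and 2 to 17 higher. Class medians ran from -0.0118 (without DSS 1) to 0.24 for initiation, -0.30 to 0.0942 for β1,3-galactose, 0.0051 to 0.15 for β1,4-galactose, -0.22 to 0.33 for α2,6-sialic acid, -0.42 to 0.0611 for GlcNAc extension, 0.0529 to 0.64 for core, 0.24 to 0.83 for β1,4-GalNAc, -0.55 to -0.28 for α2,3-sialic acid and -0.31 to -0.0573 for fucose. The mucin list ran from 0.45 to 1.42 (without DSS 2), and the B and plasma cell list from -4.0003 (without DSS+BV 1) to -0.12. Log2 fold changes crossed 0 for B3gnt3 (-0.16 to 0.17), B3gnt6 (-0.37 to 3.74), B3gnt7 (-0.57 to 0.86), B4galt1 (-0.58 to 0.0225), Gcnt1 (-0.66 to 0.10) and St6galnac6 (-0.22 to 0.13), and kept 1 sign for 29 of 35 named members. The cause of these changes was not tested. St6galnac5, St6galnac1 and Fut1 rested on at most 32 counts in a library.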
